A study of Mus musculus with 30 samples.

Results

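The chemokines Cxcl9, Cxcl10 and Cxcl11, the interferon-induced ligands of the receptor CXCR3, were followed across dendritic cells with and without the transcription factor Irf4 before and after lipopolysaccharide (LPS). The genes were taken by name, and each was represented by the probe with the brightest sample signal. A probe could be named for 2 of the 3, Cxcl9 and Cxcl10 with 1 probe each, among 16358 genes with a named probe and 11260 genes tested. Cxcl11 had no probe that could be named through the RefSeq table used and was not analysed here. That table lists mouse Cxcl11 as a transcribed pseudogene, and C57BL/6 mice are known to carry a frameshift in it.

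CXCL9, CXCL10 and CXCL11 are small secreted proteins that attract activated T cells and natural killer cells through the receptor CXCR3. In dendritic cells LPS is sensed by TLR4, and the TRIF branch of its signalling leads to interferon beta, which acts back on the cells through its own receptor. Cxcl10 is known to respond to type I and type II interferon and to NF-kB, whereas Cxcl9 is known chiefly as a target of interferon gamma.

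Both measured genes lie on chromosome 5, with the gene Art3 between them, and are read from the minus strand. The 250 bases before each annotated start (RefSeq, GRCm38.p6) are shown because the interferon and NF-kB pathways act at these promoters, with motif matches in capitals. The Cxcl9 stretch is chr5:92328080-92328329 and the Cxcl10 stretch chr5:92348890-92349139.
Cxcl9: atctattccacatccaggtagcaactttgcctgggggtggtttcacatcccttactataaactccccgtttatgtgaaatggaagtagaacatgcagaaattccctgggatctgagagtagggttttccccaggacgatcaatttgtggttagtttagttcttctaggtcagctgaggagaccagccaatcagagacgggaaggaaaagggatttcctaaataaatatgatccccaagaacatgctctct
Cxcl10: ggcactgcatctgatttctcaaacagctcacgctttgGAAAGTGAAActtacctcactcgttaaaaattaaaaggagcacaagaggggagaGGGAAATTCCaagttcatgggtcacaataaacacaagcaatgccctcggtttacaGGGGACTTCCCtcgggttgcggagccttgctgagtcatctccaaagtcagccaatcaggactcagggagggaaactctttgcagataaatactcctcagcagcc
The search took the interferon-stimulated response element as GAAANNGAAA, the gamma-activated sequence as TTCNNNGAA, the composite element of ETS factors with IRF4 or IRF8 as GGAANNGAAA, and the NF-kB site by its kappa B consensus, on both strands. Cxcl10 held 1 response element, 204 to 213 bases before the start. It also held 3 kappa B matches, at 150 to 159, 95 to 104 and 94 to 103 bases before the start, the last 2 of which overlap each other. Cxcl9 held no match to any of the 4 motifs in this window. Of 32851 promoters of the same length, 2.98% held the response element, 7.25% a kappa B match, 7.02% the gamma-activated sequence and 2.30% the composite element. These are matches of letters and not measured sites, and a stretch without a match can still hold sites that these strict patterns miss.

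The arrays measured RNA of dendritic cells grown in culture from the bone marrow of C57BL/6 mice and purified for CD11c on magnetic beads. KO cells carried CD11c-Cre and loxP-flanked Irf4 (Irf4 flox/flox), and control cells carried CD11c-Cre alone, so the Cre transgene, which acts in cells that use the CD11c promoter, was common to all groups. There were 6 groups of 5 biological replicates: KO unstimulated, KO LPS 6 h, KO LPS 24 h, control unstimulated, control LPS 6 h and control LPS 24 h. Each of 30 arrays compared a sample (Cy5) with a universal mouse reference RNA (Cy3), and a level below is the log2 ratio of sample over reference. The sources used here give neither the age of the mice nor whether a replicate was 1 mouse or 1 culture. The p-values therefore reflect only how these samples vary, which may be technical.

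Among control cells the arrays labelled replicate 3 of LPS 6 h and replicate 2 of LPS 24 h shared a slide that was scanned later, and each correlated best with control unstimulated replicate 1 (r = 0.95 and 0.91 over probes). Chemokine differences that rest on them are given with and without them, and those of other named genes and lists where leaving them out changed a call or moved a value over 1.5 times. Irf4 was lower in KO cells under every treatment, by -2.90, -2.42 and -2.17 on the log2 scale without LPS and at 6 and 24 h. Whether its probe lies inside the deleted exons is unknown here. Of the 41174 probes, 18463 to 27227 were well above background per array, and the number of arrays limits the precision. The 9 slides never held both genotypes at 1 treatment, so KO against control has no value within a slide, and slide and genotype cannot be told apart there. Of 6 dendritic cell markers, 5 were well above background on all arrays of each group. In these bulk samples, fewer cells of a type and less RNA per cell cannot be told apart.

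Cxcl10 was near the bottom of its range in unstimulated cells and high after LPS in both genotypes. In KO unstimulated cells its log2 ratios were -2.34, -2.46, -2.20, -2.19 and -1.66 for replicates 1 to 5, and none of the 5 arrays was well above background in Cy5. In control unstimulated cells they were -2.23, -2.44, -2.64, -1.74 and -1.92, and replicates 4 and 5 were above background. The unstimulated genotypes overlapped and differed by 0.029 ± 1.21 (± SE, limma, adjusted p = 0.991), where 14.1% of genes tested were called in either direction. Each SE of this fit comes from a spread shared by all 6 groups, so it also carries that of the 2 later-scanned arrays. Here the SDs were 0.31 in KO and 0.37 in control cells, and without those 2 arrays the SE was 0.69.

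After 6 h of LPS the Cxcl10 log2 ratio was 8.46, 8.72, 9.28, 7.79 and 7.32 in KO cells. It was 8.27, 8.58, -1.45, 5.42 and 5.44 in control cells, where the later-scanned replicate 3 stood near the unstimulated level. After 24 h the values were 4.82, 5.08, 5.88, 2.87 and 2.73 in KO cells. In control cells they were 4.20, -1.21, 4.45, 1.26 and 1.51, with replicate 2 the later-scanned array. All 20 arrays of the LPS groups were above background, and in each group replicates 4 and 5 lay below every other array of that group except those 2.

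The Cxcl9 probe was dim. Its Cy3 signal was not well above background on any array, so its log2 ratio follows the sample signal, and the constant of 50 added to both channels compresses it. KO unstimulated cells gave log2 ratios of -0.037, 0.19, -0.24, -0.10 and 0.074, and control unstimulated cells 0.042, -0.066, 0.086, 0.18 and -0.093, with no array above background in Cy5. After 6 h of LPS it was 0.79, 0.76, 0.98, 1.13 and 0.72 in KO cells, all 5 above background, and 2.44, 2.26, 0.205, 1.87 and 1.83 in control cells, all above background but replicate 3. After 24 h it was 0.20, 0.40, 0.47, 0.18 and 0.40 in KO cells, with only replicate 3 above background. At that time control cells gave 1.46, 0.11, 1.59, 0.33 and 0.18, with replicates 1 and 3 above background.

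**Figure D1:**
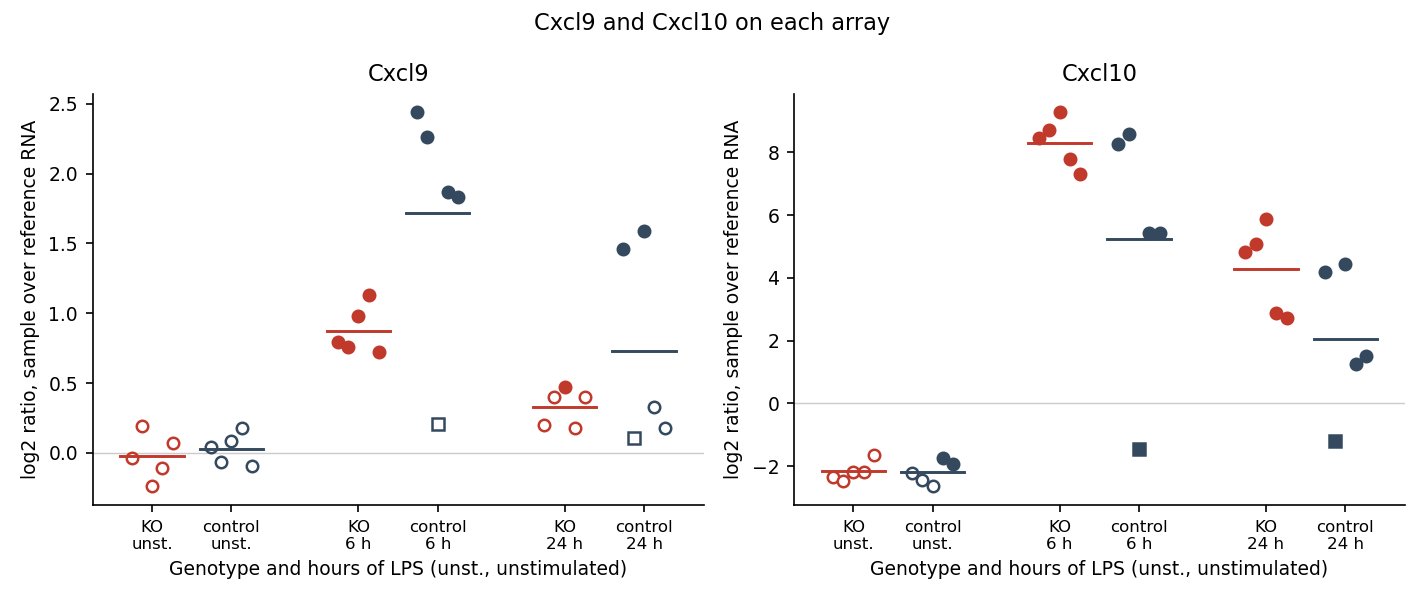
Log2 ratio of sample over reference RNA (vertical axis) for Cxcl9 and Cxcl10 on each of 30 arrays, by genotype (KO red, control dark) and hours of LPS (horizontal axis); lines are group means of 5 arrays, open symbols are not well above background in Cy5, and squares are the 2 later-scanned arrays. At 6 h the 5 KO arrays of Cxcl9 lie at 0.72 to 1.13, below 4 of the 5 control arrays, while for Cxcl10 they lie at 7.32 to 9.28.

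The order of the group means differed between the genes. For Cxcl9 control LPS 6 h was highest (1.72 ± 0.89, SD, n = 5), then KO LPS 6 h (0.88 ± 0.17), control LPS 24 h (0.73 ± 0.73), KO LPS 24 h (0.33 ± 0.13) and the unstimulated groups. For Cxcl10 KO LPS 6 h was highest (8.32), then control LPS 6 h (5.25), KO LPS 24 h (4.28) and control LPS 24 h (2.04). The ranges of neighbours in each order overlapped except where LPS and unstimulated groups met. There the lowest KO LPS 24 h array of Cxcl9 lay at 0.182 and the highest control unstimulated one at 0.178, and the lowest control LPS 24 h array of Cxcl10 lay at -1.21 and the highest KO unstimulated one at -1.66.

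LPS at 6 h raised both chemokines in each genotype. Cxcl10 rose in KO cells by 10.48 ± 1.21 on the log2 scale (limma, adjusted p = 6.35e-07), at least 1360-fold. The bound sets the mean LPS signal against, on each unstimulated array, the higher of the probe's own signal and the lowest one well above background. In control cells Cxcl10 rose by 7.45 ± 1.21 (adjusted p = 0.000462), or 9.13 without the 2 later arrays. Cxcl9 rose in KO cells by 0.90 ± 0.29 (adjusted p = 0.0239), at least 1.57-fold, and in control cells by 1.69 ± 0.29 (adjusted p = 0.000776), at least 2.85-fold, or 2.07 on the log2 scale without the 2 arrays. In all 4 cases no LPS array lay as low as any of the 5 unstimulated arrays (exact permutation p = 0.00794, two-sided, the smallest this design gives). Genes called higher made up 14.2% of those tested in KO cells and 7.14% in control cells. Cxcl9 entered the tests only because KO LPS 6 h was above background on all 5 arrays, so a difference of that group was built into its selection. The Cxcl9 call in KO cells was lost without KO unstimulated replicate 3 (0.84, adjusted p = 0.0548) or KO LPS 6 h replicate 4 (0.84, adjusted p = 0.0575). Without the 2 later control arrays, which enter the SE through the shared spread, that rise was 0.90 ± 0.20 (limma, adjusted p = 0.00093). Both control calls were lost when only the arrays compared entered the fit (adjusted p = 0.0591 for each). Within the slide that held both, Cxcl10 was 10.47 higher in KO LPS 6 h replicate 1 than in KO unstimulated replicates 3 to 5, and Cxcl9 0.88 higher. Control LPS 6 h replicates 1 and 2 stood 10.26 and 2.30 above control unstimulated replicates 4 and 5 on theirs.

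At 24 h Cxcl10 was still raised and Cxcl9 was called in neither genotype. Cxcl10 rose over unstimulated cells by 6.44 ± 1.21 in KO cells (adjusted p = 0.000411). The group means of the ratio differed 87.1-fold, and the bound, which is taken on the Cy5 signal alone and here set by the probe's own unstimulated signal, was at least 89.3-fold. It rose by 4.24 ± 1.21 in control cells (adjusted p = 0.0212, 5.05 without the 2 arrays), a call lost without control LPS 24 h replicate 1 (3.70, adjusted p = 0.0694) or replicate 3 (3.64, adjusted p = 0.0690). The Cxcl9 difference was 0.35 ± 0.29 in KO cells (adjusted p = 0.441) and 0.70 ± 0.29 in control cells (adjusted p = 0.121), and the control difference was called without the 2 arrays (0.86, adjusted p = 0.00423). Genes called higher at 24 h were 10.2% in KO and 7.23% in control cells. No slide held these groups together within 1 genotype. With slide as a block the KO differences turned to -0.78 for Cxcl10 (adjusted p = 0.636) and -1.54 for Cxcl9 (adjusted p = 0.00184).

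Both chemokines stood lower at 24 h than at 6 h. Cxcl10 fell in KO cells by 4.04 ± 1.21 on the log2 scale (adjusted p = 0.0379), with all 5 arrays at 24 h below all 5 at 6 h. The call was lost on leaving out any of 7 of those 10 arrays. Without the 2 later-scanned control arrays, which enter the SE through the shared spread, the fall was 4.04 ± 0.69 (limma, adjusted p = 0.000234). In control cells the Cxcl10 difference was -3.21 ± 1.21 (adjusted p = 0.133), or -4.07 without the 2 arrays (adjusted p = 0.001). Cxcl9 fell in control cells by 0.99 ± 0.29 (adjusted p = 0.0468, lost without any of 7 of 10 arrays), or 1.21 without the 2 arrays (adjusted p = 0.000729). Its control arrays at 6 and 24 h overlapped (exact permutation p = 0.0635), and did not without those 2. In KO cells the Cxcl9 difference was -0.55 ± 0.29 (adjusted p = 0.296), with no overlap of the arrays, as for Cxcl10 in KO cells. Genes called lower were 4.21% in KO and 2.18% in control cells. Within the slide of control LPS 24 h replicates 1 and 3 and LPS 6 h replicate 5 the differences were -1.11 for Cxcl10 and -0.30 for Cxcl9, and on the later slide 0.24 and -0.098.

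The genotypes parted in opposite directions at 6 h of LPS, with Cxcl9 lower and Cxcl10 higher on average in KO cells. Over 30 arrays neither difference was called in the fit without a block. Cxcl9 averaged 0.88 ± 0.17 in KO cells and 1.72 ± 0.89 in control cells (SD, n = 5 each), a log2 difference of -0.84 ± 0.29 (limma, adjusted p = 0.0607, nominal 95% interval -1.45 to -0.24; exact permutation p = 0.0635). Without the 2 later arrays the 5 KO arrays lay below all 4 control arrays, the difference was -1.22 ± 0.21, a 2.33-fold lower ratio, and it was called (adjusted p = 0.000226; exact permutation p = 0.00794, the smallest possible). Control LPS 6 h replicate 3 alone decided this call, since leaving out it and no other array gave -1.22 with adjusted p = 0.000558. With Cy5 alone, without the reference channel, the difference over all arrays was -0.74 (adjusted p = 0.0587).

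Cxcl10 at 6 h averaged 8.32 in KO cells and 5.25 in control cells. The difference was 3.06 ± 1.21 (adjusted p = 0.103, interval 0.56 to 5.57), and 1.39 without the 2 arrays (adjusted p = 0.233), where KO replicates 4 and 5 overlapped control replicates 1 and 2. Leaving out control LPS 6 h replicate 1 or 2 gave a call (3.82, adjusted p = 0.0444, and 3.90, adjusted p = 0.0346). Of all genes 12.1% were called at this time. At 24 h the differences kept those signs without a call, at -0.40 ± 0.29 for Cxcl9 (adjusted p = 0.418) and 2.23 ± 1.21 for Cxcl10 (adjusted p = 0.242), where 15.4% of genes were called. Without the 2 arrays they were -0.56 (adjusted p = 0.0762) and 1.42 (adjusted p = 0.222). Unstimulated Cxcl9 differed by -0.052 (adjusted p = 0.932). With slide as a block, where few arrays link the genotypes, the 6 h difference turned to 0.49 for Cxcl9 (adjusted p = 0.191) and was 6.16 for Cxcl10 (adjusted p = 0.011), and the 24 h difference of Cxcl10 turned to -4.57 (adjusted p = 0.00656).

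**Figure D2:**
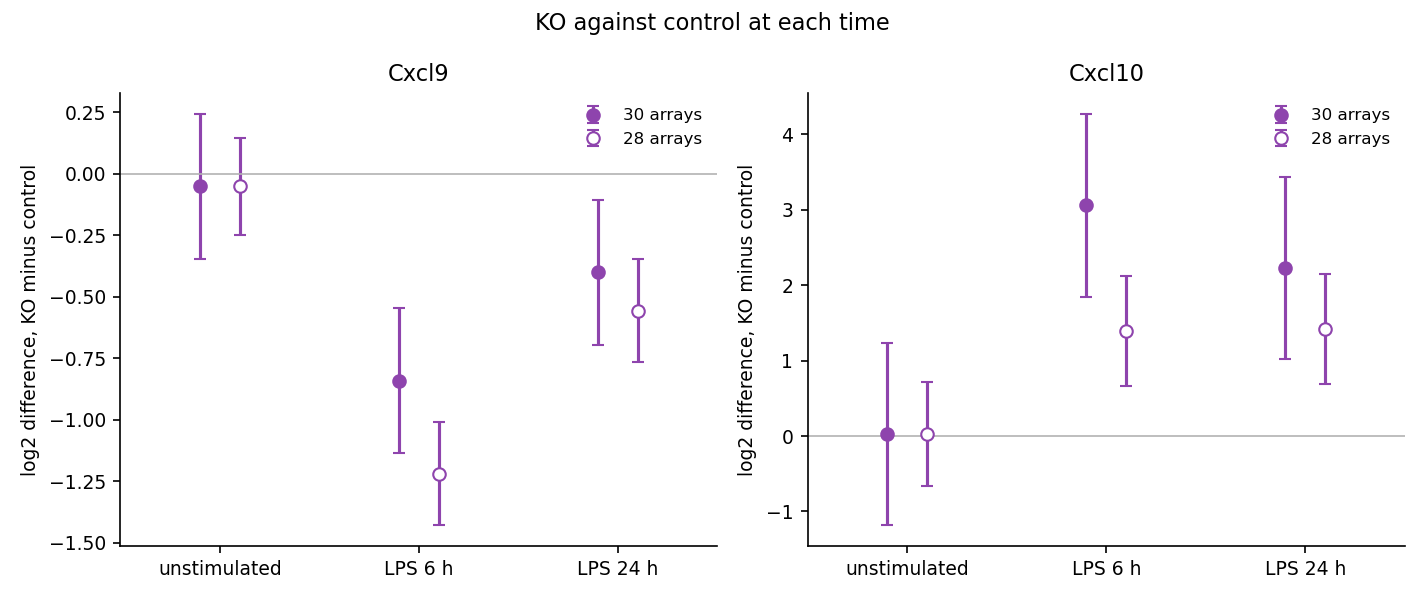
Log2 difference of KO minus control (vertical axis, bars ± SE) for Cxcl9 and Cxcl10 in unstimulated cells and after 6 and 24 h of LPS, from all 30 arrays (filled) and from 28 arrays without the 2 later-scanned ones (open). Cxcl9 lies below 0 after LPS and moves to -1.22 at 6 h with 28 arrays, and Cxcl10 lies above 0 and moves to 1.39.

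The difference of LPS responses, KO minus control, tests whether the genotypes responded unequally. At 6 h it was -0.79 for Cxcl9 (adjusted p = 0.684) and 3.03 for Cxcl10 over 30 arrays, neither called, among 0.435% of genes called. Without the 2 arrays the Cxcl9 value was -1.17 and was called (adjusted p = 0.0414), and the Cxcl10 value was 1.36 (adjusted p = 0.863). At 24 h it was -0.35 for Cxcl9 and 2.20 for Cxcl10, neither called, among 0.888% of genes called, or -0.51 and 1.39 without the 2 arrays.

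Because the genes parted in sign, the balance between them was set out per array as the log2 ratio of Cxcl10 minus that of Cxcl9. The measure was chosen after the values were seen and is given as a description with no test. At 6 h the balance was 7.44 ± 0.77 in KO cells (range 6.60 to 8.30) and 3.53 ± 3.16 in control cells (range -1.66 to 6.33, SD, n = 5 each). No control array reached the lowest KO array, and the control mean without replicate 3, where Cxcl9 was not above background, was 4.83 ± 1.46. At 24 h it was 3.95 ± 1.35 in KO cells and 1.31 ± 1.70 in control cells, or 1.97 ± 0.98 without replicate 2, and the genotypes overlapped. Cxcl9 was above background at that time on only 1 KO and 2 control arrays, so the balance there rests mostly on Cxcl10. In unstimulated cells, where both genes were near background, the balance was -2.15 in KO and -2.23 in control cells.

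**Figure D3:**
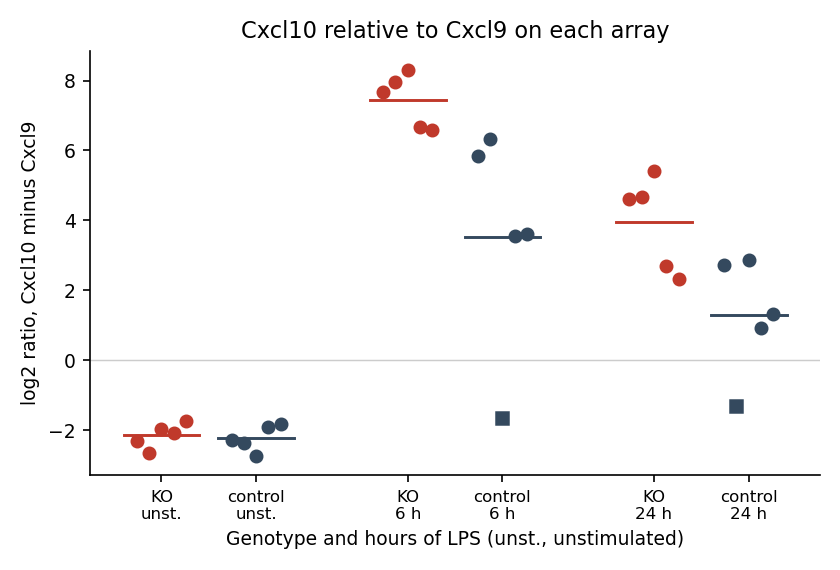
Log2 ratio of Cxcl10 minus that of Cxcl9 (vertical axis) on each array by genotype (KO red, control dark) and hours of LPS (horizontal axis); lines are group means and squares are the 2 later-scanned arrays. At 6 h the KO arrays, at 6.60 to 8.30, all lie above the control arrays, at -1.66 to 6.33.

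Across the 30 arrays the log2 ratios of Cxcl9 and Cxcl10 had a Pearson r of 0.74, and 0.89 after group means were taken out (0.70 over 28 arrays). These are descriptions over arrays that share groups, slides and the reference RNA. The genes most like Cxcl10 over 30 arrays were Ifit2, Trim30a, Tor3a and Trim21 (r = 0.98 each) and the pentraxin Ptx3 (r = 0.979). Those most like Cxcl9 were Tmem171 (r = 0.936), the phosphatase Inpp5b (r = 0.925), Phf24 (r = 0.900), the nucleoside kinase Dck (r = 0.895) and the cadherin Cdh15 (r = 0.891). The 2 sets shared no gene. At 6 h the KO minus control difference lay below 0 for all 5 genes like Cxcl9, at -0.16 for Phf24 to -1.70 for Cdh15, and above 0 for all 5 like Cxcl10, at 0.82 for Trim21 to 2.14 for Ifit2, as their likeness to a gene with that pattern already implies.

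Of the interferons that induce these chemokines, Ifnb1, which encodes interferon beta, was not above background in unstimulated cells and rose at 6 h. At 6 h its log2 ratios were 1.59, 1.60, 2.56, 4.34 and 3.55 in KO cells, and 2.98, 2.34, 0.02, 2.48 and 3.06 in control cells. It rose at least 5.13-fold in KO cells (log2 difference 2.62, adjusted p = 0.000712) and at least 3.47-fold in control cells (2.11, adjusted p = 0.011). Ifnb1 entered the tests only through KO LPS 6 h, so a difference of that group was built into its selection. The genotypes overlapped, with a difference of 0.55 (adjusted p = 0.58, 0.014 without the 2 arrays) and, at 24 h, -0.59 (adjusted p = 0.539, -0.92 without them). Within KO cells replicates 4 and 5 were the highest for Ifnb1 at 6 h and the lowest for Cxcl10.

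Ifng, which encodes interferon gamma, did not pass the filter on dim probes and was not tested. At 6 h its log2 ratios were 0.13, -0.069, -0.013, 0.40 and 0.51 in KO cells, with 2 arrays above background. In control cells they were 1.28, 1.43, -0.28, 1.38 and 2.08, with 4 above background. The 4 control arrays other than the later-scanned one lay above all 5 KO arrays, as they did for Cxcl9. At 24 h Ifng lay at -0.19 to 0.31 in KO cells (0 arrays above background) and at -0.053 to 1.18 in control cells (4 arrays). Of the 7 T and NK cell markers with a probe, which include Ifng, Gzmb, which encodes granzyme B, was lower in KO cells at 6 h (-0.84 ± 0.24, adjusted p = 0.019). Gzmb entered the tests only through control LPS 6 h and control LPS 24 h, so a difference of those groups was built into its selection. Cd4 was higher in KO cells at 6 h (0.30 ± 0.093, adjusted p = 0.033, 0.25 and not called without the 2 arrays). These calls stand against 12.1% of all genes called. In the LPS 6 h groups Cd3e and Cd4 were above background on all 5 arrays of each, Cd3g on 3 KO and 4 control arrays, Gzmb on 3 KO and 5 control arrays, and the NK receptor genes Klrb1c on 1 array of each and Ncr1 on 0 arrays. The summed Cy5 signal of these markers, quantile-normalised, was 826 to 980 in KO LPS 6 h and 781 to 1090 in control LPS 6 h. Their part in the Cxcl9 difference was not tested.

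**Figure D4:**
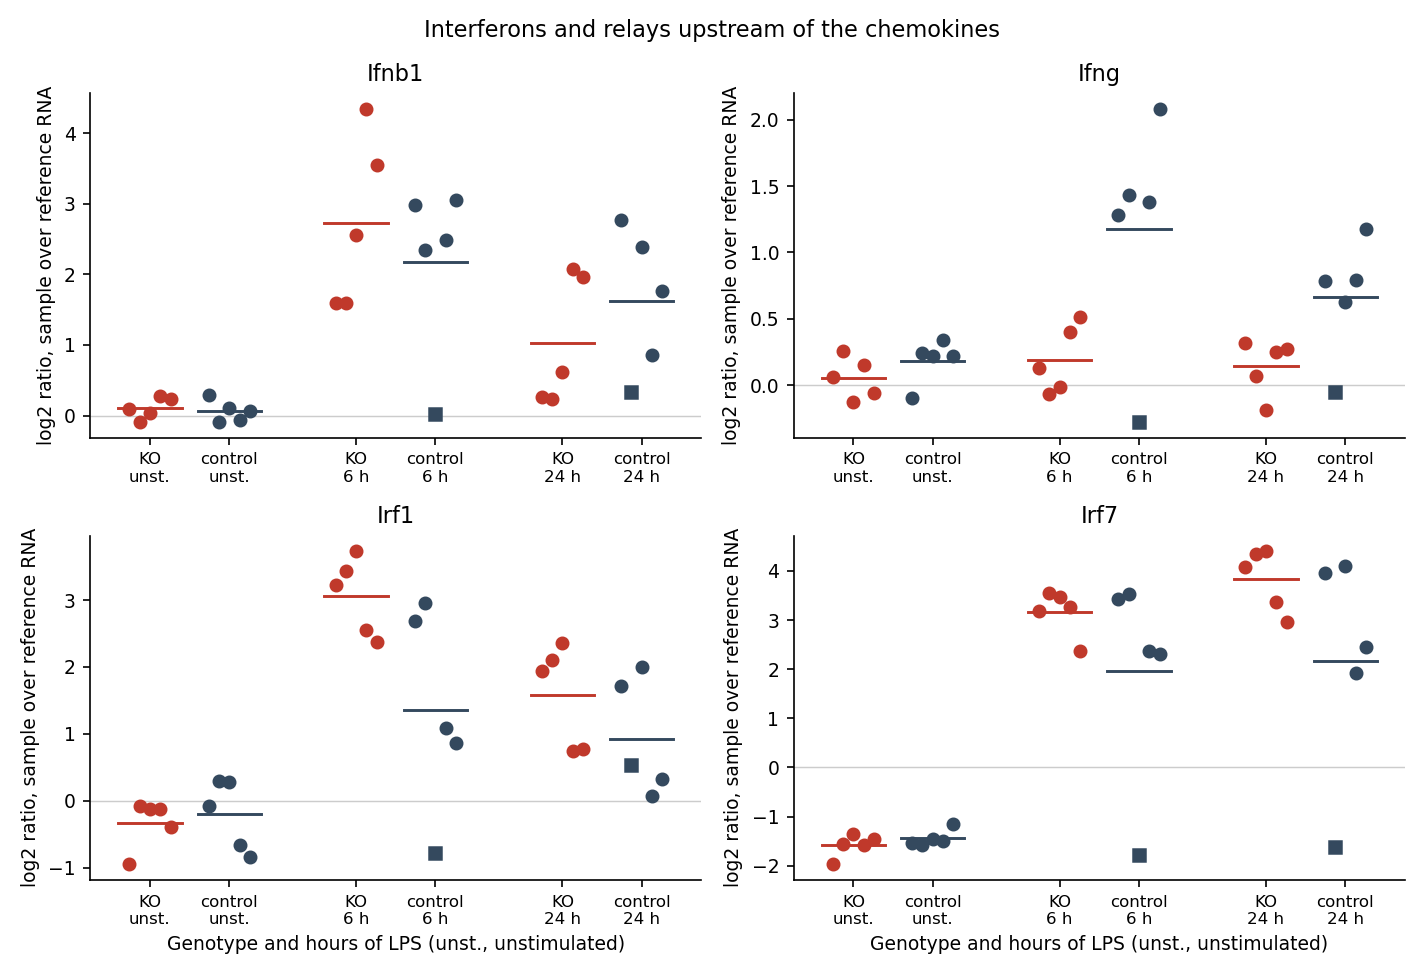
Log2 ratio of sample over reference RNA (vertical axes) on each array for Ifnb1, Ifng, Irf1 and Irf7 by genotype (KO red, control dark) and hours of LPS (horizontal axes); lines are group means and squares the 2 later-scanned arrays, with background status not shown. At 6 h Ifng lies at -0.069 to 0.51 in KO cells and reaches 2.08 in control cells, while the genotypes overlap for Ifnb1.

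Among 6 tested genes of interferons and their receptors, 2 rose and 1 fell in each genotype at 6 h. Of all genes 14.2% rose and 12.4% fell in KO cells, and 7.14% rose and 4.49% fell in control cells. Between genotypes 12.1% of all genes were called at 6 h and 15.4% at 24 h. The counts of the lists below stand against these shares. Ifngr1, the ligand-binding chain of the interferon gamma receptor, fell by 1.03 in KO cells (adjusted p = 0.0278) and by 2.00 in control cells (adjusted p = 0.000752). It was the 1 gene of this list called between genotypes at 6 h, 1.15 ± 0.35 higher in KO cells (adjusted p = 0.0274). Upstream, of 14 genes from TLR4 to TRIF and MyD88, 4 rose and 1 fell in KO cells and 3 rose and 1 fell in control cells (6 and 1 without the 2 arrays). Tlr4 (1.42 ± 0.25, adjusted p = 0.000319) and the TRIF adaptor Ticam2 (1.04 ± 0.25, adjusted p = 0.00614) were the 2 higher in KO than in control cells at 6 h (3 without the 2 arrays), and both stayed called at 24 h (1.08 and 0.84). With slide as a block the Tlr4 difference at 6 h turned to -0.49 and that of Ticam2 at 24 h to -0.84. Tlr4 itself fell with LPS in control cells (-1.01, adjusted p = 0.00834).

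In the relay from interferon receptors to the promoters, 8 of 12 JAK, STAT and IRF genes rose at 6 h in KO cells and 3 in control cells (6 without the 2 arrays), with list medians of 1.36 and 0.50 (0.78 without the 2 arrays) on the log2 scale against 0.025 and 0.0067 over all genes. Irf1, a transcription factor induced by interferon gamma, rose by 3.40 in KO and 1.57 in control cells (adjusted p = 1.81e-05 and 0.0465). It was higher in KO cells at 6 h (1.70 ± 0.52, adjusted p = 0.0287), a call lost without the 2 arrays (1.17, adjusted p = 0.0987), and not called at 24 h (0.66, adjusted p = 0.453). Irf7, which amplifies interferon production, rose by 4.76 and 3.41. Irf5 was lower in KO cells without LPS (-1.81), at 6 h (-0.73, adjusted p = 0.0415, not called at -0.71 without the 2 arrays) and at 24 h (-1.03). The kinase Jak2 was lower in KO cells without LPS (-1.89, adjusted p = 2.63e-05) and at 24 h (-0.80, adjusted p = 0.0484, not called at -0.67 without the 2 arrays). Its 6 h response was larger in KO cells (1.80, adjusted p = 0.0247), while its level at 6 h was not called between genotypes (-0.084, adjusted p = 0.893).

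Of 7 NF-kB genes 6 rose at 6 h in KO cells and 2 in control cells (6 without the 2 arrays), and the cofactor Nfkbiz was higher in KO than in control cells at 6 h (1.69 ± 0.54, adjusted p = 0.0376, lost without the 2 arrays at 0.93). Of 8 brakes on these pathways 6 rose in KO and 3 in control cells (5 without the 2 arrays). Among them the interferon brake Usp18 rose by 4.81 and 2.75. Against 12.1% of all genes, the phosphatase gene Ptpn2 was the 1 brake called between genotypes at 6 h (0.47, adjusted p = 0.0326). The call was lost without the 2 arrays (0.38, adjusted p = 0.0894).

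For other interferon-induced genes, the counts called between genotypes stand against 14.1%, 12.1% and 15.4% of all genes without LPS and at 6 and 24 h. Of 12 tested companions typical of type I interferon, 12 rose at 6 h in KO and 11 in control cells, with medians of 5.01 and 3.66. Ifit1 rose by 7.98 in KO and 5.37 in control cells and Ifit2 by 6.88 and 4.82. Ifit2 entered the tests only through KO LPS 6 h and KO LPS 24 h, so a difference of those groups was built into its selection. Between genotypes none of the 12 was called at 6 or 24 h by limma, while 2 and 3 had an unadjusted p under 0.05. The 6 h difference had a median of 1.25, or 0.28 without the 2 arrays, against -0.012 over all genes, and for Ifit1 it was 2.29 (adjusted p = 0.144, 0.91 without the 2 arrays). In unstimulated cells Ccl5 was the 1 called (2 without the 2 arrays), lower in KO cells (-2.69, adjusted p = 0.0223).

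Of 13 tested companions typical of interferon gamma, 12 rose at 6 h in KO and 11 in control cells, with medians of 3.92 and 2.54. The GTPase Iigp1 rose by 6.09 in KO and 4.26 in control cells and Gbp5 by 5.99 and 3.54. Between genotypes at 6 h the GTPase Gbp6 was higher in KO cells (1.86 ± 0.57, adjusted p = 0.0315, not called at 1.26 without the 2 arrays), and it was also higher at 24 h (2.09, adjusted p = 0.0122). Ido1, which degrades tryptophan, was lower in KO cells at 6 h (-0.83 ± 0.28, adjusted p = 0.0483). Without the 2 arrays its value was -0.93 (adjusted p = 0.0248). The median of the 13 differences at 6 h lay above 0, at 0.93, or 0.34 without the 2 arrays. Gbp2 was lower in unstimulated KO cells (-1.81, adjusted p = 0.000399) and responded more to 6 h of LPS in KO cells (2.42, adjusted p = 0.00912). Its level at 6 h was not called between genotypes (0.61, adjusted p = 0.254, 0.19 without the 2 arrays).

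Other chemokines rose at 6 h in 13 of 17 cases in KO and 8 of 17 in control cells (12 without the 2 arrays). The neutrophil-attracting Cxcl1 rose by 7.40 in KO and 3.75 in control cells. At 6 h 4 of the 17 were higher and 1 lower in KO cells, where 12.1% of all genes were called in either direction. The largest differences were of Cxcl1 (3.61 ± 0.88, adjusted p = 0.00647) and Cxcl2 (3.16 ± 0.81, adjusted p = 0.00952), also called without the 2 arrays (2.52 and 2.26) and at 24 h (2.80 and 2.56). Cxcl2 entered the tests only through KO LPS 6 h and KO LPS 24 h, so a difference of those groups was built into its selection. With slide as a block the 6 h differences turned to -0.072 for Cxcl1 and -1.03 for Cxcl2. Ccl24 was the one lower (-1.81, adjusted p = 0.009).

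On the receiving and processing side, Cxcr3 itself was dim in these cells. It was above background on 2 of 5 KO LPS 6 h arrays and all 5 control LPS 6 h arrays, the group through which alone it entered the tests. It rose by 0.43 at 6 h in KO cells (adjusted p = 0.00965), stood 0.29 higher in control cells (adjusted p = 0.124, 0.305 and called without the 2 arrays) and differed by -0.13 between genotypes (adjusted p = 0.563). Of 5 genes of this list, Dpp4, the peptidase that trims and inactivates CXCR3 ligands, was lower in KO cells without LPS (-2.36 ± 0.41, adjusted p = 0.000213), at 6 h (-1.89, adjusted p = 0.00231) and at 24 h (-1.86, adjusted p = 0.00225). Pf4, a platelet chemokine that also binds CXCR3 variants, was higher in KO cells at 24 h (1.59 ± 0.29, adjusted p = 0.000306).

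Of the 9 other genes around the chemokines in RefSeq order, 5 were tested, namely Ppef2, Naaa, Sdad1, Nup54 and Scarb2. At 6 h 1 rose and 2 fell in KO cells, against 14.2% and 12.4% of all genes, and 1 fell in control cells (2 rose and 3 fell without the 2 arrays), against 4.49% of all genes falling. Naaa fell by 0.81 in KO cells (adjusted p = 0.0478), Nup54 rose by 0.45 in KO cells (adjusted p = 0.0128), and Sdad1 fell with LPS in KO (-0.77, adjusted p = 0.0269) and control cells (-0.90, adjusted p = 0.021). None of the 5 was called between genotypes at 6 h by limma, against 12.1% of all genes, and 1 had an unadjusted p under 0.05. Without LPS Naaa (-0.95, adjusted p = 0.0348) and Ppef2 (-0.57, adjusted p = 0.0253) were called lower in KO cells, against 14.1% of all genes called. Both were also called without the 2 arrays.

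Markers of other cells were compared between genotypes, where 12.1% of all genes were called at 6 h and 15.4% at 24 h. Of 3 tested neutrophil genes S100a8 was the 1 called at 6 h, lower in KO cells (-3.18 ± 1.00, adjusted p = 0.0363). At 24 h S100a9 was the 1 called, also lower in KO cells (-3.43 ± 0.73, adjusted p = 0.00177). The summed Cy5 of 4 neutrophil markers was 940 to 20931 in KO LPS 6 h and 17074 to 129819 in control LPS 6 h, with Elane above background on 0 arrays. Of 4 macrophage markers with a probe it was 28691 to 63954 and 16345 to 43247, with 0 of 4 called by limma and 3 at an unadjusted p under 0.05. Of the dendritic cell markers it was 36513 to 49866 and 58033 to 184502, and Cd74 was lower in KO cells at 6 h (-1.22, adjusted p = 0.0225). By limma Itgax (0.33), H2-Ab1 (0.21), Zbtb46 (0.097) and Ccr7 (-0.067) were not called between genotypes at 6 h. Without the 2 arrays their values were 0.21, 0.11, -0.21 and -0.36, again not called. Plasmacytoid dendritic cell markers summed to 54214 to 65424 and 13415 to 60028, with Siglech above background on 0 arrays and 0 of 3 tested called by limma, adjusted or not. These sums moved with LPS, since they were 8301 to 12849 in KO and 10577 to 12963 in control unstimulated cells. Bst2, a marker among them, rose at 6 h by 2.77 in KO and 1.88 in control cells. B cell markers summed to 424 to 484 and 385 to 486, with Pax5 above background on 0 arrays. Their part in the chemokine differences was not tested.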

How the data were processed

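The deposited scanner files hold red and green spot intensity values with a log10 ratio of red over green, and per the file headers the software was Feature Extraction 10.7.3.1. The authors' deposited table holds log2 ratios, and limma was used per the submitters' processing notes. Its scale and direction matched the ratios computed here, and it entered as an alternative. Here R 4.3.3 and limma 3.58.1 were used. Backgrounds marked non-uniform were replaced by the array median, followed by normexp with an offset of 50 and loess within arrays, with control spots at weight 0. Flagged outlier spots were left out and spots of a probe averaged. Probes were named through RefSeq accessions (GRCm38.p6). A gene was tested if its brightest Cy5 probe was well above background on all 5 arrays of at least 1 group, which left 11260 genes. The fit had 1 mean per group over 30 arrays (24 residual degrees of freedom), 11 comparisons, and Benjamini-Hochberg adjustment over all genes within each, with calls at adjusted p below 0.05. Direction follows the labels, with samples in Cy5. The step was tested on simulated data.

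The members and gene lists were chosen with earlier results of these data known. Genes named beside the chemokines are the 5 most correlated with each, up to 3 called genes with the largest difference per list and comparison, and Ifnb1, Irf1, Irf4 and Cxcr3. Ifng, Irf7 and other genes outside that rule were chosen after their values were seen. Alternatives changed the background, normalization, filter, probe choice, samples and blocks. One gene that the rule names is not reported here.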

Additional observations from a re-analysis of the deposited data

Results flagged for a closer look

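The Cxcl9 log2 ratio of 0.205 in control LPS 6 h replicate 3 stood apart from the other 4 arrays of its group, which lay between 1.83 and 2.44. Its gap to the nearest of them was 0.726 of the group's range, above Dixon's critical value of 0.71 for 5 samples. The rule was applied to 12 groups of arrays and chance flags about 1 in 20. The array is 1 of the 2 on the later-scanned slide, and Cxcl10 on it lay at -1.45.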

How the results depend on the processing

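Of the chemokine results, 234 kept direction and side of the threshold when 1 array was left out, 4 became called, 18 lost a call and 4 changed sign. Under the other settings the counts were 224, 20, 10 and 10. The cause of these changes was not tested. The replicate numbers were not taken to pair the samples throughout, since every same-number correlation was over 0.1 in only 6 of 15 group pairs (range -0.336 to 0.875; the lowest was -0.112 for KO against control at 6 h), though 38 of 75 correlated best with their own number. Among those 6 were LPS 6 h against unstimulated and 24 h against 6 h in KO cells, where the replicate block changed no chemokine call and raised the genes called to 4777 and 2023, and 24 h against unstimulated in control cells, where it raised them to 2753. With the replicate block Cxcl9 at 6 h, KO against control, was -0.84 (adjusted p = 0.0465). Genes called ranged from 894 to 5701 (2997 in the main setting) for LPS 6 h in KO and from 75 to 4740 (1310) in control cells, from 1096 to 6235 (2038) and 634 to 4717 (1384) for LPS 24 h, from 372 to 5845 (873) and 79 to 2467 (619) for 24 h against 6 h, from 936 to 5700 (1588), 726 to 3122 (1365) and 998 to 5076 (1732) for KO against control at 0, 6 and 24 h, and from 28 to 442 (49) and 20 to 6035 (100) for the differences of responses.

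With slide as a block, Cxcl9 gave -1.54 and 2.09 for LPS 24 h in KO and control cells, -2.42 and -0.21 for 24 h against 6 h, 1.92, 0.49 and -1.71 for KO against control at 0, 6 and 24 h, and -1.42 and -3.63 for the differences of responses. Cxcl10 gave -0.78 for LPS 24 h in KO cells, 5.95, 6.16 and -4.57 for KO against control, and -10.51 for the 24 h difference of responses. KO against control turned to -0.043 for Ifnb1, -0.49 for Tlr4, -0.072 for Cxcl1, -1.03 for Cxcl2 and 0.49 for Cd74 at 6 h, to -0.84 for Ticam2, -4.09 for Irf1 and -1.92 for Gbp6 at 24 h, and to 0.51 for Ccl5 without LPS. Cxcl9 at 24 h against 6 h in control cells lost its call with backgrounds as scanned (-0.75), median centring (-0.80), the scanner's log ratio (-2.06), no filter on dim probes (-0.99, adjusted p = 0.0595) and only the arrays compared (-0.99, adjusted p = 0.427). Cxcl10 at 24 h against 6 h in KO cells lost it with the scanner's log ratio (-4.14) and no filter (-4.04, adjusted p = 0.0525). Unstimulated Cxcl10, KO against control, turned to -0.43 with backgrounds as scanned, -0.0043 with median centring and -0.40 with the scanner's log ratio, where Cxcl9 was 0. With only the arrays compared, LPS 6 h in control cells lost its call for Cxcl9 (1.69, adjusted p = 0.0591) and Cxcl10 (7.45, adjusted p = 0.0591), and Cxcl9 in KO cells was called for LPS 24 h (0.35) and 24 h against 6 h (-0.55). Without the 2 later arrays Cxcl9 was called for LPS 24 h in control cells (0.86), KO against control at 6 h (-1.22) and the 6 h difference of responses (-1.17), and Cxcl10 for 24 h against 6 h in control cells (-4.07). Adding the replicate block, chosen after seeing the data, these were 0.87, -1.26, -1.21 and -4.15, with Cxcl9 also called for 24 h against 6 h in KO cells (-0.55) and KO against control at 24 h (-0.57).

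Leaving out 1 array, Cxcl9 ranged from 0.84 to 0.95 for LPS 6 h in KO cells, -1.36 to -0.81 for 24 h against 6 h in control cells, -0.11 to 0.0022 for KO against control without LPS and -1.22 to -0.66 at 6 h. Cxcl10 ranged from 3.64 to 5.05 for LPS 24 h in control cells, -4.44 to -3.65 and -4.89 to -2.38 for 24 h against 6 h in KO and control cells, -0.0985 to 0.14 for KO against control without LPS (-0.032 and -0.082 among them) and 1.39 to 3.90 at 6 h. The dim Cxcl9 probe limits what its ratios resolve.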
